A study of Mus musculus with 3 samples.

Results

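Interleukin 1 and inflammasome genes were followed through mouse blood as a set of 9 genes, Il1b, Il1rn, Il1r2, Nlrp3, Casp1, Casp4, Pycard, Tnf and Il18, chosen by their gene symbols. All 9 were found among the 32285 genes of the count matrices, of which 21266 had a count in the cells kept. Peripheral blood mononuclear cells (PBMCs) had been profiled by droplet-based single-cell RNA sequencing in 3 libraries. One came from young mice of 8 weeks and one from aged mice of 16 months, both labelled as having no treatment, and the last from aged-GA mice, also of 16 months, which had received glycyrrhizic acid (GA), a saponin of licorice root, for 1 month. The study's methods give the control group of the GA injections tail vein injections of phosphate-buffered saline, and the labels do not say whether the aged library came from such mice. A figure legend of the study gives the number of mice of each group, but the labels do not say how many went into a library. Each group was 1 library, so no test was run, and a difference between groups cannot be told apart from one between preparations. Values are therefore described with 95% intervals that cover counting error only, exact Poisson for levels, exact conditional binomial for ratios and exact binomial for shares of cells.

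Interleukin 1 beta, encoded by Il1b, is a fever-causing cytokine made as an inactive precursor. Inflammasomes are protein platforms that mature it: a sensor such as NLRP3 binds the adaptor ASC (Pycard), which recruits caspase-1 (Casp1), and caspase-1 cuts the precursors of interleukin 1 beta and interleukin 18. Caspase-11 (Casp4 in the mouse) senses lipopolysaccharide inside the cell. The antagonist IL-1Ra (Il1rn) and the decoy receptor (Il1r2) hold interleukin 1 in check, and TNF is a cytokine released beside it by activated myeloid cells and T cells. Neutrophils and monocytes are the blood cells best known for this pathway.

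The levels are counts of unique molecular identifiers (UMIs, each tagging 1 captured RNA molecule), given as CPM, the UMIs of a gene per 1e6 UMIs summed over the same cells. Cells were sorted into gates by marker genes alone, none of them among the 9: a cell needed at least 3 different markers of its gate, and of every other gate no more than 1 for each 3 of its own. The 3 libraries kept 8851, 10238 and 12648 cells with 48249945 to 75832322 UMIs. The gates took 89.5% of the young cells, 83.9% of the aged cells and 80.2% of the aged-GA cells. Barcodes shared between libraries numbered 52 for young and aged, 50 for young and aged-GA and 62 for aged and aged-GA. S100a8, a neutrophil gene in no gate, reached 60342 to 68177 CPM in mature neutrophils of young and aged mice and 46370 in aged-GA mice, but no more than 93.8 CPM in either kind of monocyte, B cells or T cells. Lyz2, a monocyte gene in no gate, stood at 25191 and 28036 CPM in classical monocytes of aged and aged-GA mice.

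The myeloid gates were very unequal in size. In the order young, aged, aged-GA, mature neutrophils numbered 7, 721 and 457, granule-rich neutrophils, those with at least 2 transcripts of granule proteins such as Ngp and Ltf, 5, 94 and 60, classical monocytes 2, 510 and 95, and nonclassical monocytes 50, 430 and 176. B cells numbered 2298, 4388 and 5682, T cells 5343, 2190 and 3501, and NK cells 220, 139 and 146. PBMC preparations are meant to leave most neutrophils behind, so these numbers are not a count of blood neutrophils. Ratios between libraries were taken only where a gate had at least 20 cells in both, a limit set after the cells were counted. For neutrophils and classical monocytes of young mice the UMIs are given cell by cell instead. A gene counted as past the fold with a ratio of at least 2-fold in either direction and at least 100 UMIs over both libraries.

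Il1b was above all a gene of mature neutrophils. Aged mature neutrophils held it at 10292 CPM (10149 to 10437) and aged-GA ones at 14386.5 CPM (14181 to 14595). The 7 young mature neutrophils held 53, 43, 31, 25, 44, 16 and 27 Il1b UMIs, together 14898 CPM (13069 to 16912). All 7 young cells thus lay within the spread of single aged cells, whose median was 25 UMIs and whose highest was 92, and of aged-GA cells, with a median of 36 and a highest of 194. At least 1 Il1b UMI was found in 98.9% of aged and 99.6% of aged-GA mature neutrophils, against 5.77% of aged B cells, at median depths of 2196 UMIs (aged neutrophils) and 3148 UMIs (aged B cells). This gate was 7.04% of the aged and 3.61% of the aged-GA cells and held 69.1% and 62.6% of their Il1b UMIs; a further 25.7% and 32.7% lay in cells that entered no gate. In aged mice, mature neutrophils held 209-fold more Il1b than classical monocytes (log2 7.71, interval 7.53 to 7.90), and in aged-GA mice 87.1-fold more (log2 6.44, 6.21 to 6.68).

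Granule-rich neutrophils, which carry the transcripts of an earlier stage of the lineage, were low in Il1b. Aged cells had 546 CPM and aged-GA cells 542 CPM, and Il1b was 18.9-fold and 26.6-fold higher in the mature cells of the same library. The median granule-rich cell had 0 Il1b UMIs in each library. In aged-GA mice 2 cells held 246 of the 264 Il1b UMIs of this gate, so the level rested on them and was 39.0 CPM (23.1 to 61.7) without them. Among the 5 young cells, 1 held 5 Il1b UMIs and the others none.

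**Figure D1:**
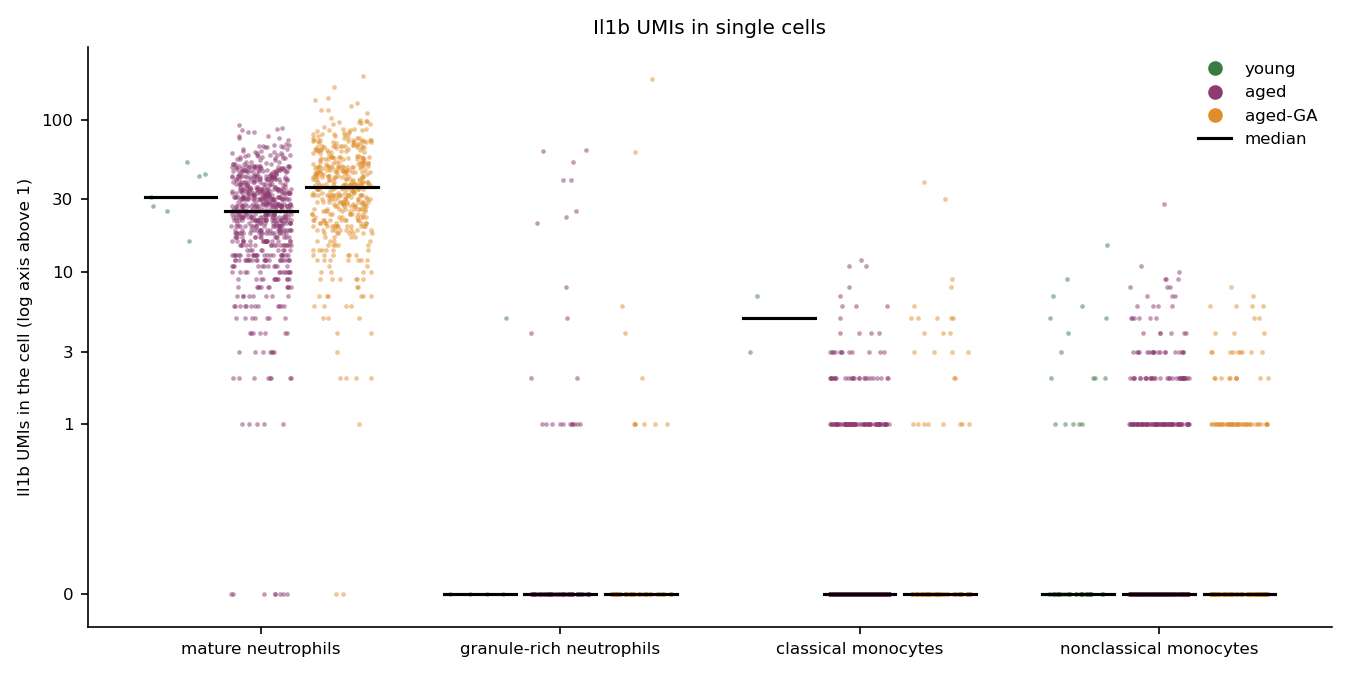
Il1b UMIs in every single cell (vertical axis, logarithmic above 1) of the 4 myeloid gates in young, aged and aged-GA libraries; each point is a cell and the black line is the median. Mature neutrophils centre on medians of 31, 25 and 36 UMIs, while the median of the other gates is 0 except in the 2 young classical monocytes.

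Among monocytes, Il1b was higher in the nonclassical than in the classical gate of aged mice, at 192 CPM (174 to 212) against 49.2 CPM (43.3 to 55.6). In aged-GA mice the nonclassical gate had 157 CPM and the classical gate 165 CPM, with a log2 ratio of classical over nonclassical of 0.08 (-0.26 to 0.41). Without the 2 cells with most Il1b in each gate this ratio was -0.63 (-1.04 to -0.22), and in aged mice it was -1.97 with all cells and -1.96 without such cells. Barcodes of red cells, those with under 200 genes and over 50% haemoglobin, were set beside these levels. On totals without haemoglobin, they held Il1b at 203 CPM (aged) and 202 CPM (aged-GA). Both monocyte gates lay below this, with overlapping intervals except for aged classical monocytes. The totals are unlike: the 5460 aged barcodes together held 1150956 UMIs without haemoglobin, while the median aged classical monocyte held 9549.5 UMIs. Lying below therefore does not place the monocyte Il1b at the level of free RNA. S100a8 reached 1292 and 782 CPM in these barcodes, but at most 93.8 CPM in the monocytes. How much of the monocyte Il1b was free RNA was not tested. The 2 young classical monocytes held 7 and 3 UMIs of Il1b. Nonclassical monocytes of young mice had 286 CPM (222 to 364), from 67 UMIs in 50 cells. Aged over young the nonclassical log2 ratio was -0.58 (-0.95 to -0.18), within the 2-fold limit, and -0.12 without the 2 cells with most Il1b in each library.

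In the comparison of aged-GA with aged, Il1b was 1.40-fold higher in mature neutrophils (log2 0.48, 0.45 to 0.51) and had a log2 ratio of -0.01 (-0.25 to 0.22) in granule-rich neutrophils. This last value rested on a few cells: without the 2 cells with most Il1b in each library it was -3.22, lower than the 2-fold limit, and it was also below that limit with the mean of CPM per cell (-1.28) and without cells over 5% haemoglobin (-1.26). The median log2 ratio of all 2866 genes measured in mature neutrophils was 0.15. Classical monocytes had 3.36-fold more Il1b in aged-GA mice (log2 1.75, 1.45 to 2.04). This was the only one of 31 gene and gate combinations with enough UMIs to pass the fold in this comparison. Among 5657 genes in classical monocytes, 0.495% were at least 2-fold higher and 0.831% lower. No member passed the fold in the other gates with all cells counted, where the shares of genes higher and lower were 1.43% and 0.105% in mature neutrophils, 0.606% and 0.505% in granule-rich neutrophils, 0.171% and 0.293% in nonclassical monocytes, 0.144% and 0.391% in B cells, 0.171% and 0.554% in T cells and 0.209% and 0.487% in NK cells. The classical monocyte levels of both libraries lay below the Il1b level of their red cell barcodes, taken on totals without haemoglobin. S100a8 lay further below, at 93.8 (aged) and 43.2 CPM (aged-GA) in classical monocytes against 1292 and 782 CPM in these barcodes. Totals without haemoglobin are unlike those of a cell, and the part of free RNA in the classical monocyte Il1b was not tested. Of the 153 UMIs behind the aged-GA classical level, 39 and 30 came from 2 of the 95 cells. No Il1b UMI was found in 384 of the 510 aged and 68 of the 95 aged-GA classical monocytes. The level thus rested on a minority of cells, and the counting interval does not cover this uneven spread. Without the 2 cells with most Il1b in each gate and library the log2 ratio was 1.04. Nonclassical monocytes leaned the other way (log2 -0.29, -0.58 to -0.02), and a gate that allowed more markers of other types turned this ratio to 0.66. The 9 genes of the handling-stress list (such as Fos, Junb and Dusp1), which respond while cells are prepared, summed to 12924 CPM in mature neutrophils of aged mice and 17338 CPM in those of aged-GA mice, and to 3176 and 3975 CPM in classical monocytes; their part in these ratios was not tested.

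B, T and NK cells also carried Il1b UMIs, at 15.01 CPM in B, 11.2 CPM in T and 21.9 CPM in NK cells of aged mice, against 0.653, 0.205 and 0 CPM in young mice. These levels were set beside the RNA that floats free in the droplets. Barcodes of red cells, with under 200 genes and over 50% haemoglobin, held 0.157 Il1b UMIs per S100a8 UMI in the aged and 0.259 in the aged-GA library. In T cells the same quotient was 0.167 and 0.302, in B cells 0.177 and 0.300 and in mature neutrophils 0.151 and 0.310. NK cells had 0.212 from 11 Il1b UMIs and 0.167 from 6, too few to place. Il1b and S100a8 thus stood in B and T cells in nearly the ratio they have in mature neutrophils of the same library. Granule-rich neutrophils, rich in S100a8 and low in Il1b, had quotients of only 0.0030 (aged) and 0.0037 (aged-GA). The Il1b levels of B and T cells could therefore not be told apart from RNA of mature neutrophils and were not taken as expression. Their source was not tested. The young values rested on 6 Il1b UMIs each in B and T cells and 1 in red cell barcodes. A single B-gated cell of aged-GA mice held 33 of the 502 Il1b UMIs of its gate.

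**Figure D2:**
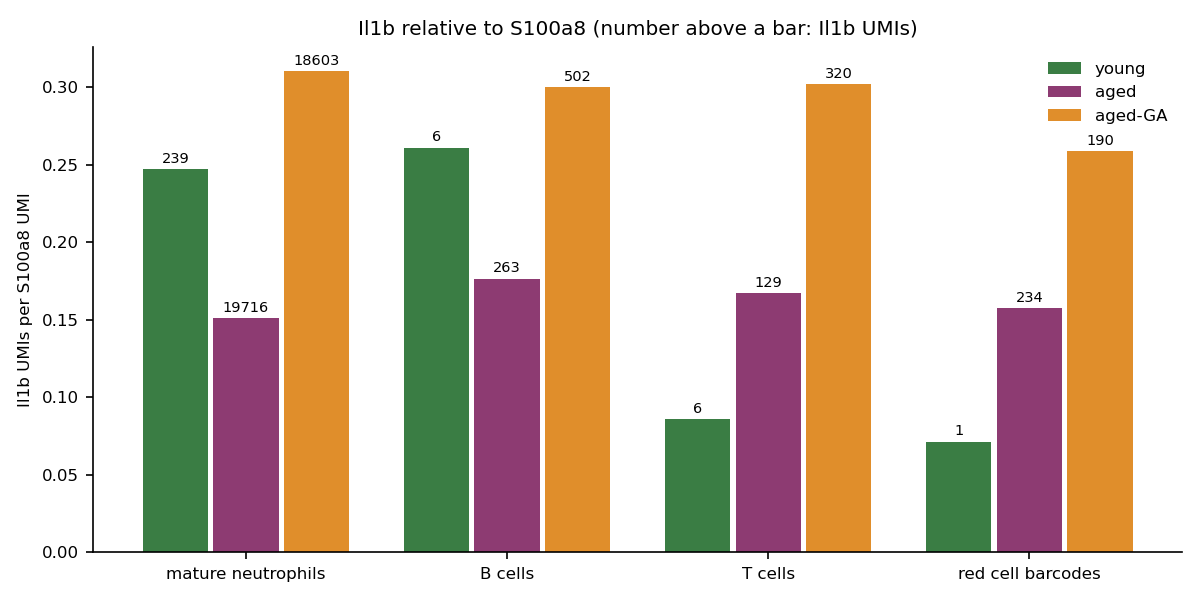
Il1b UMIs divided by S100a8 UMIs (vertical axis) in mature neutrophils, B cells, T cells and red cell barcodes of each library; the number above a bar is its Il1b UMIs. Within the aged library all 4 bars lie between 0.151 and 0.177, and within the aged-GA library between 0.259 and 0.310.

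The inhibitors of interleukin 1 followed the same cells. Il1r2, the decoy receptor, had 1099 CPM (2105 UMIs) in aged mature neutrophils and 1394 CPM (1802 UMIs) in aged-GA ones. The 7 young cells held 4, 5, 3, 4, 2, 2 and 1 UMIs, or 1309 CPM (810 to 2001). Granule-rich neutrophils kept a clear level of Il1r2, 237 and 287 CPM, a 4.63-fold and 4.85-fold step from the mature cells, smaller than the step of Il1b. All 5 young granule-rich cells had at least 2 Il1r2 UMIs. Classical monocytes stood at 23.0 and 17.3 CPM and nonclassical monocytes at 2.35 and 7.35 CPM. Aged-GA over aged, Il1r2 in mature neutrophils had a log2 ratio of 0.34 (0.25 to 0.43).

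Il1rn, the receptor antagonist, was lower. Aged mature neutrophils had 153 CPM (293 UMIs) and aged-GA ones 160 CPM (207 UMIs), a log2 ratio of 0.07 (-0.20 to 0.33). Young mature neutrophils held 1, 3, 0, 4, 4, 0 and 0 UMIs, or 748 CPM (387 to 1307), above the intervals of both aged libraries but from 7 cells. Granule-rich neutrophils had 80.6 and 78.0 CPM, at log2 ratios of the mature over the granule-rich cells of 0.92 (0.50 to 1.37) and 1.04 (0.53 to 1.58). Each of the 5 young granule-rich cells held 1 to 3 Il1rn UMIs. Classical and nonclassical monocytes of these 2 libraries had 3.15 to 12.96 CPM, and B, T and NK cells at most 0.571 CPM. Neutrophils in these libraries thus held cytokine, antagonist and decoy receptor in the same gate.

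Nlrp3, the sensor, was found in neutrophils, monocytes and basophils. Aged mature neutrophils had 461 CPM (884 UMIs) and aged-GA ones 622 CPM (804 UMIs), at a log2 ratio of 0.43 (0.29 to 0.57). The 7 young cells held 4, 2, 3, 1, 2, 9 and 1 UMIs. This was 22 of the 16042 UMIs of the young gate, a larger share than the 884 of 1915580 UMIs in aged mature neutrophils. The 108 aged basophils, a gate left out of the comparisons, had 458 CPM (389 to 537), which overlapped with the aged mature neutrophils, and the 19 aged-GA basophils had 303 CPM (188 to 464). Among the 7 gates compared, classical monocytes followed the mature neutrophils with 97.9 and 106 CPM, nonclassical monocytes with 40.0 and 53.6 CPM and granule-rich neutrophils with 44.1 and 41.0 CPM. The intervals of the granule-rich neutrophils and nonclassical monocytes overlapped in both libraries, so these 2 places in the order were not separated. In both libraries B and T cells were at 0.485 to 1.94 CPM, where red cell barcodes had 18.2 and 9.57 CPM on totals without haemoglobin. In young nonclassical monocytes Nlrp3 was at 64.1 CPM, from 15 UMIs.

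**Figure D3:**
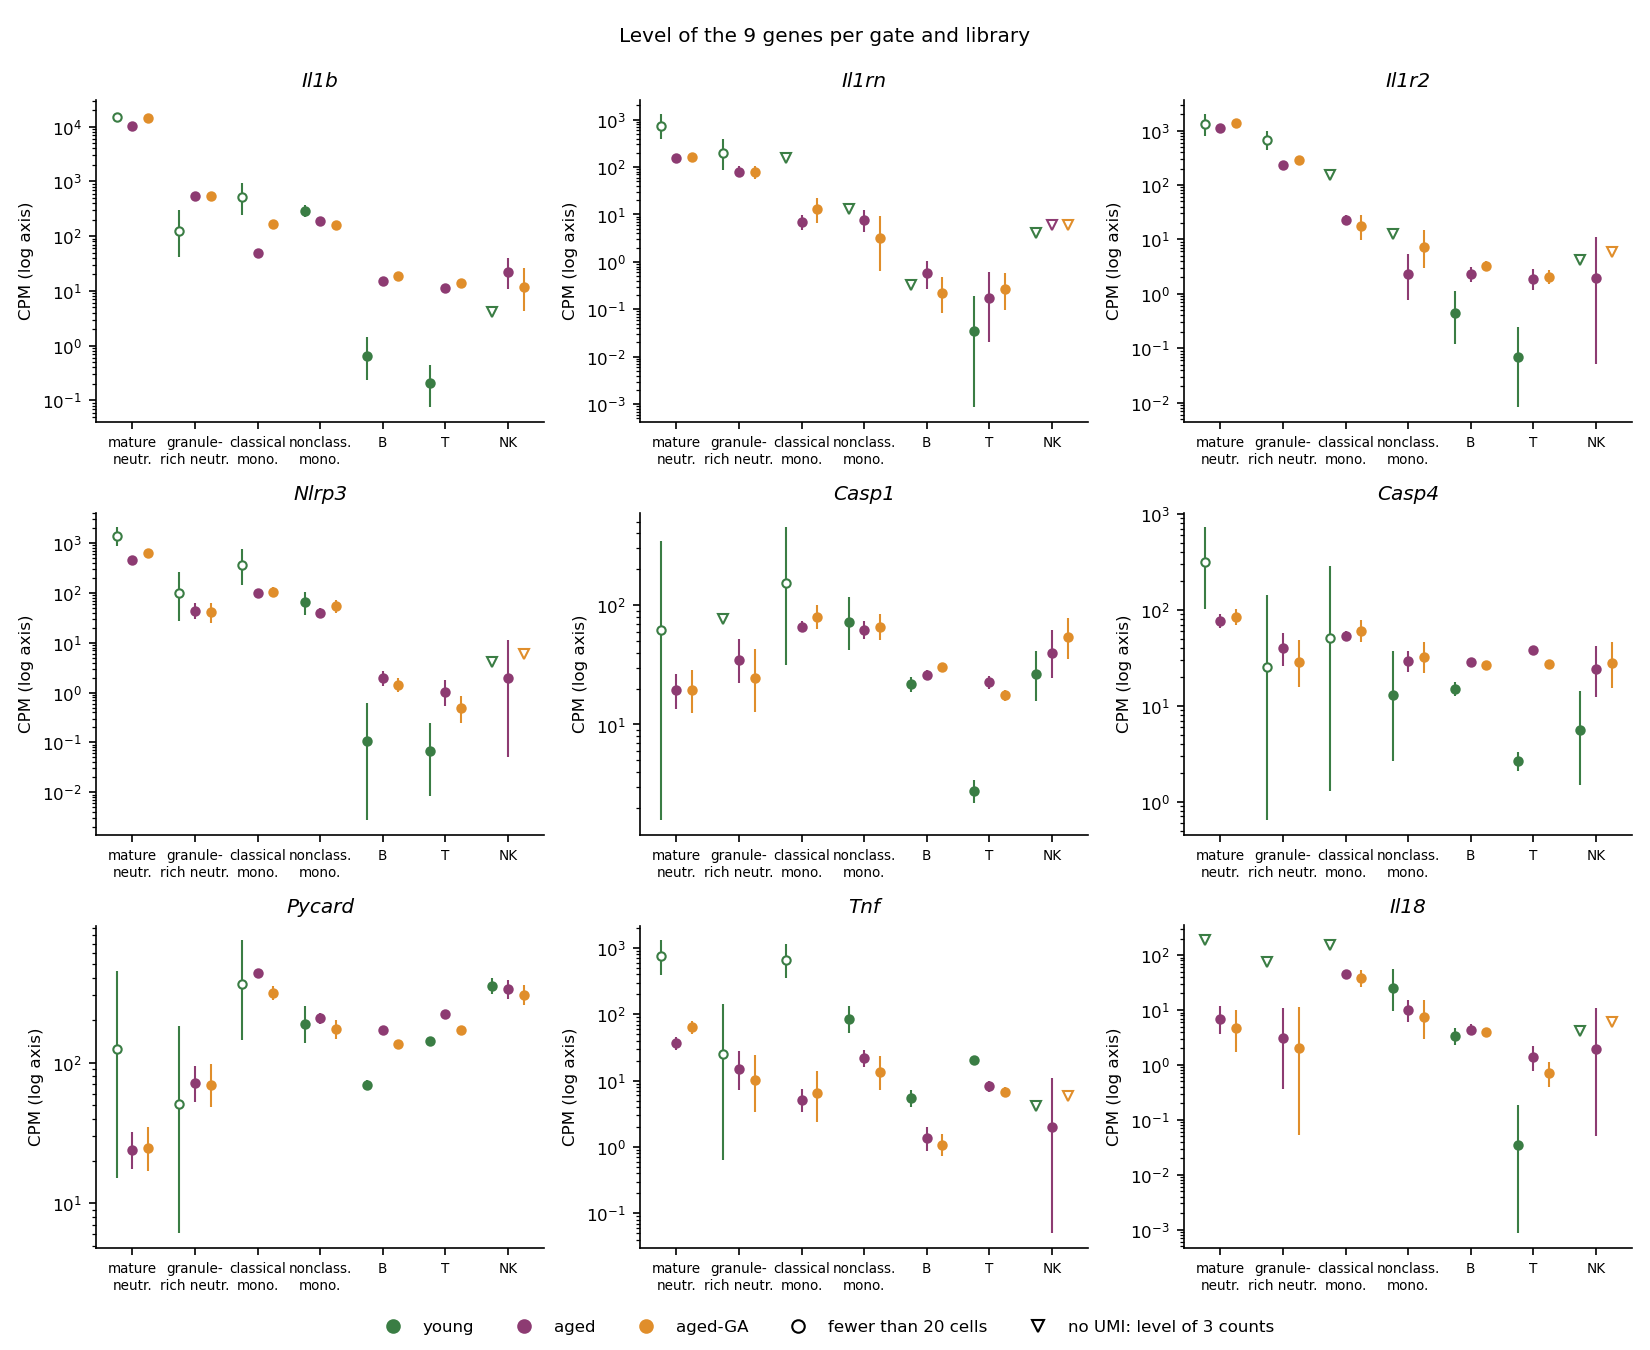
CPM (logarithmic axis) of the 9 genes in 7 gates of the young, aged and aged-GA libraries, with exact Poisson 95% intervals; open circles are gates with fewer than 20 cells and open triangles mark the level of 3 counts where no UMI was found. Among these gates Il1b, Il1rn, Il1r2 and Nlrp3 are highest in mature neutrophils of aged and aged-GA mice, while Pycard is lowest there.

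Pycard and Casp1 had another distribution than the cytokine and its inhibitors. Pycard, the adaptor, stood at only 24.0 CPM in aged mature neutrophils and 24.7 CPM in aged-GA ones. Red cell barcodes, on their total without haemoglobin, had 104 and 62.8 CPM. Classical monocytes had 436 and 314 CPM, NK cells 330 and 302 CPM, T cells 220 and 169 CPM and nonclassical monocytes 206 and 172 CPM. Casp1 was at 19.3 CPM in mature neutrophils of both libraries, against 66.1 and 79.9 CPM in classical and 61.6 and 66.2 CPM in nonclassical monocytes. The levels of Casp1 in the 2 kinds of monocyte overlapped in their intervals. Only 37 and 25 Casp1 UMIs were found in mature neutrophils, in 4.99% and 4.60% of the cells, against 2.78% of the 108 aged basophils, whose median depth was 2615 UMIs. Casp4 was spread more evenly, with 76.2 and 84.3 CPM in mature neutrophils and 52.9 and 60.5 CPM in classical monocytes. Mature neutrophils held its highest level among the 7 gates compared in both libraries.

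Il18, the second substrate of caspase-1, had its highest level among the 7 gates compared in classical monocytes of aged and aged-GA mice. The aged cells held 45.8 CPM (233 UMIs) and the aged-GA cells 37.8 CPM (35 UMIs), with a log2 ratio of -0.28 (-0.83 to 0.24). Nonclassical monocytes had 9.88 and 7.35 CPM, mature neutrophils 6.79 and 4.64 CPM, and B cells 3.37, 4.39 and 3.95 CPM across the 3 libraries. The mature neutrophil values lay within the interval of red cell barcodes in aged mice (1.91 to 11.3 CPM), taken on totals without haemoglobin.

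Set against classical monocytes in aged mice, 4 of the 9 genes were at least 2-fold higher in mature neutrophils (Il1b, Il1r2, Il1rn and Nlrp3) and 3 at least 2-fold lower (Pycard at log2 -4.18, Il18 at -2.76 and Casp1 at -1.77); Casp4 lay within the limit and Tnf had under 100 UMIs. Among 5833 genes, 12.1% were higher and 46.7% lower. In aged-GA mice only 6 members had enough UMIs: the same 4 genes were higher, Pycard was lower (log2 -3.67) and Casp4 lay within the limit. Of all 2739 genes, 21.2% were higher and 30.7% lower. Casp1, at 19.3 against 79.9 CPM, Il18, at 4.64 against 37.8 CPM, and Tnf had under 100 UMIs there and were not called. Mature over granule-rich neutrophils, 5 members had enough UMIs in either library. Of these, 3 were past the fold upwards in aged mice (Il1b, Nlrp3, Il1r2), where 27.4% of genes were and 4.93% were lower. All 5 were in aged-GA mice (also Casp4 and Il1rn), where 32.0% of genes were and 5.72% were lower. None was past the fold downwards. Classical over nonclassical monocytes in aged mice, of 7 members with enough UMIs, Il1r2, Il18, Nlrp3 and Pycard were higher and Il1b lower, with 8.37% of genes higher and 8.86% lower. In aged-GA mice, with 95 classical cells, none of the 4 members with enough UMIs was past the fold, against 6.28% of genes higher and 11.7% lower.

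Tnf was scarce in aged blood. Aged mature neutrophils had 36.5 CPM (70 UMIs) and aged-GA ones 63.4 CPM (82 UMIs), a log2 ratio of 0.80 (0.32 to 1.28). The 7 young cells held 1, 0, 3, 0, 6, 1 and 1 UMIs, or 748 CPM (387 to 1307), and the 2 young classical monocytes held 11 and 2. Aged and aged-GA classical monocytes had 5.11 and 6.48 CPM. Young nonclassical monocytes had 85.5 CPM (52.2 to 132), aged ones 21.6 CPM (15.8 to 28.9) and aged-GA ones 13.7 CPM (7.27 to 23.4), from 20, 46 and 13 UMIs, under the minimum for a call. Young B cells had 5.44 CPM, against 1.37 and 1.08 CPM. The young levels of Tnf lay above the intervals of both aged libraries in nonclassical monocytes, B cells and T cells.

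The comparison of aged with young mice sets 1 library of each beside the other, so age cannot be told apart from preparation. It covered nonclassical monocytes, B, T and NK cells and held 15 gene and gate combinations with enough UMIs, of which 5 were higher and 1 lower. The 5 were Casp1 and Casp4 in T cells, Pycard in B cells, where it rested on a few cells, and Il1b in both. Il1b was not taken as expression in either gate. No share of all genes was computed over these gates together, and the share of each gate is given with its members. Of the 5 members measured in T cells, Casp1, Casp4 and Il1b were at least 2-fold higher in the aged library (Il1b at a level not taken as expression) and Tnf lower, where 8.94% of 9376 genes were higher and 1.42% lower. Casp4 stood at 2.63 CPM (77 UMIs in 5343 cells) in the young, 38.0 CPM (439 UMIs in 2190 cells) in the aged and 27.5 CPM (625 UMIs in 3501 cells) in the aged-GA library. The ratio aged over young was 14.4-fold (log2 3.85, 3.50 to 4.22). Casp1 stood at 2.77, 22.5 and 17.5 CPM, 8.13-fold higher in aged than in young mice (log2 3.02, 2.66 to 3.40). Aged red cell barcodes had 6.08 CPM of Casp4 and 8.69 CPM of Casp1. The 108 aged basophils had no Casp4 UMI, for which the upper limit of the Poisson interval is 10.98 CPM. The aged T cell levels stood above these. After each cell was thinned to 500 UMIs, Casp4 was found in 0.0936% of young T cells, 2.01% of aged and 1.57% of aged-GA ones.

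Tnf in T cells went the other way, with 20.7 CPM (605 UMIs) in the young, 8.22 CPM (95 UMIs) in the aged and 6.83 CPM (155 UMIs) in the aged-GA library. Aged over young was 2.51-fold lower (log2 -1.33, -1.66 to -1.02). Pycard in T cells stayed within the limit, with 142 CPM in young and 220 CPM in aged mice, a log2 ratio of 0.64 (0.57 to 0.71). Aged-GA over aged, the T cell log2 ratios were -0.46 (-0.64 to -0.28) for Casp4, -0.36 (-0.59 to -0.13) for Casp1, -0.38 (-0.45 to -0.31) for Pycard and -0.27 (-0.64 to 0.12) for Tnf.

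The make-up of the T cells differed between the libraries as well. Naive-type cells (both Ccr7 and Lef1 and no memory gene) made up 24.1%, 7.72% and 7.37% of the T cells in the order young, aged, aged-GA, and memory-type cells (at least 2 of S100a4, Ccl5, Nkg7, Cxcr3, Id2, Maf and Itgb1 and not both naive genes) 8.95%, 45.1% and 36.4%. These classes were added after the T cell values were seen. In memory-type cells Casp4 was at 12.2, 59.7 and 52.0 CPM, a log2 ratio aged over young of 2.29 (1.77 to 2.84), and Casp1 at 13.7, 38.4 and 39.5 CPM, a log2 ratio of 1.49 (0.98 to 2.03). In naive-type cells Casp4 was at 1.28, 7.29 and 14.3 CPM, from 8, 6 and 20 UMIs. Casp1 and Casp4 were thus higher in memory-type than in naive-type and other T cells of every library. Within memory-type cells the Casp1 and Casp4 ratios were smaller than over all T cells: 2.81-fold against 8.13-fold for Casp1, and 4.87-fold against 14.4-fold for Casp4. In the other T cells, neither naive-type nor memory-type, they were 6.21-fold for Casp1 and 14.3-fold for Casp4. In naive-type cells, where few UMIs were counted, they were 9.47-fold and 5.68-fold. The part of the T cell make-up in these ratios was not tested. Among T cells grouped by co-receptor, aged cells with Cd4 held 72.4 CPM of Casp4 and 34.95 CPM of Casp1, and aged cells with Cd8 genes 14.4 and 16.4 CPM. Tnf was lower in aged memory-type cells (log2 -1.84, -2.36 to -1.34). Pycard had log2 ratios of -0.08 (-0.40 to 0.24) in naive-type cells, 0.36 (0.22 to 0.49) in memory-type cells and 0.34 (0.23 to 0.44) in the other T cells, against 0.64 over all T cells. Aged-GA over aged, the log2 ratio of memory-type cells was -0.20 (-0.42 to 0.03) for Casp4 and 0.04 (-0.23 to 0.32) for Casp1. Memory-type cells had -0.37 (-0.48 to -0.27) for Pycard and -0.04 (-0.57 to 0.51) for Tnf. In naive-type cells it was 0.97 (-0.40 to 2.58) for Casp4, 0.37 (-1.27 to 2.25) for Casp1, 0.01 (-0.37 to 0.39) for Pycard and 0.01 (-1.45 to 1.59) for Tnf, so the negative ratios over all T cells were not found in this class, where few UMIs were counted. The other T cells did have negative ratios, -0.61 (-0.92 to -0.30) for Casp4, -0.74 (-1.20 to -0.29) for Casp1 and -0.27 (-0.38 to -0.16) for Pycard. For Tnf they had -0.38 (-0.97 to 0.23).

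**Figure D4:**
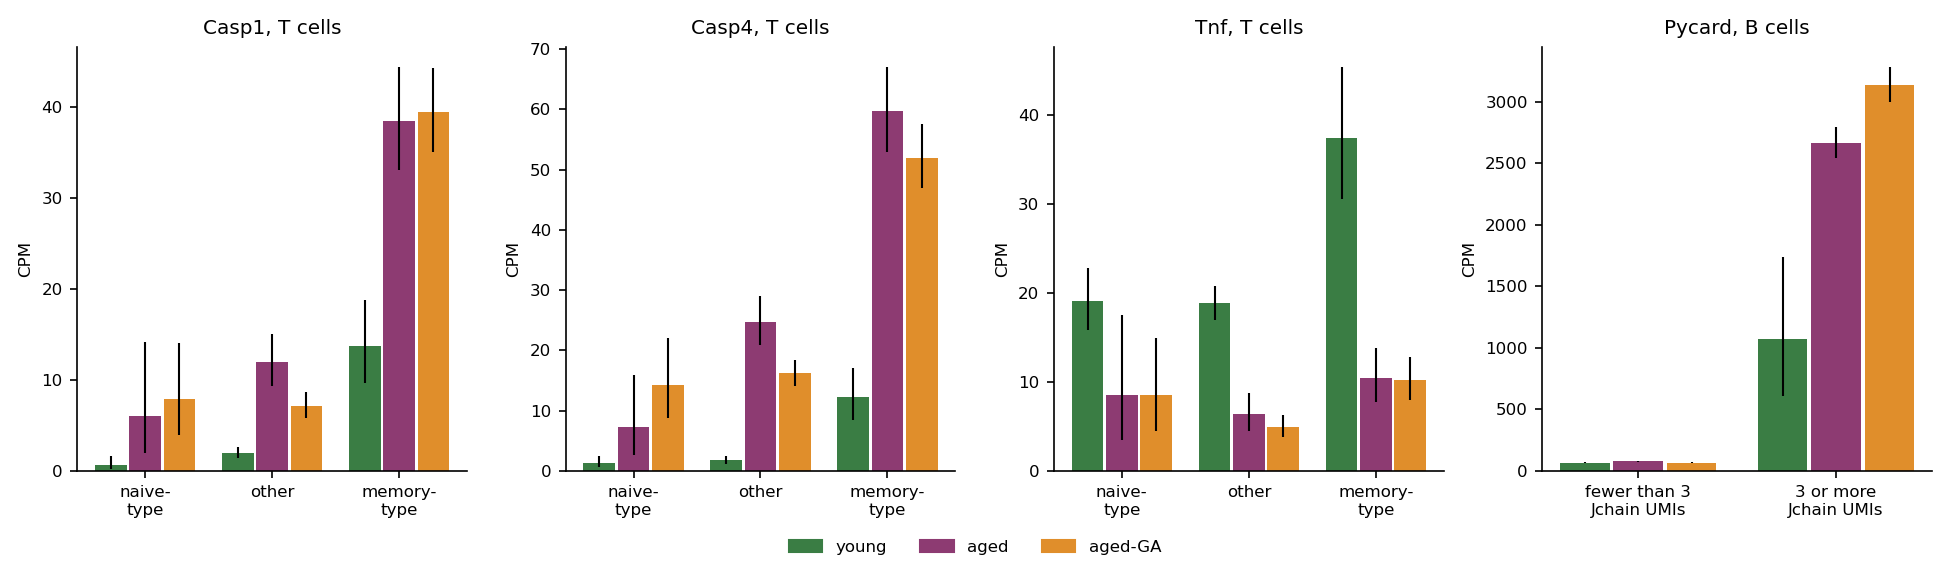
CPM of Casp1, Casp4 and Tnf in naive-type, other and memory-type T cells and of Pycard in B cells split by Jchain, in young, aged and aged-GA libraries; bars are levels and lines exact Poisson 95% intervals. Casp4 in memory-type T cells is 12.2, 59.7 and 52.0 CPM, and Pycard in B cells with 3 or more Jchain UMIs is 2665 and 3139 CPM in aged and aged-GA mice, with 1 such cell in young mice.

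Casp1 and Casp4 are neighbours in the genome, both on the plus strand of chromosome 9 of GRCm38, Casp1 at chr9:5298517-5307265 and Casp4 at chr9:5308828-5336783, with 1562 bases between them. The bases just before each gene are shown because of their T cell ratios between young and aged mice. Apart from Il1b, these 2 had the largest among members with enough UMIs. They come from RefSeq promoter windows (GRCm38.p6), at chr9:5298267-5298516 for Casp1 and chr9:5308599-5308827 for Casp4, written 5′ to 3′ on the plus strand, and capitals mark a match to the NF-kappaB motif.
Casp1: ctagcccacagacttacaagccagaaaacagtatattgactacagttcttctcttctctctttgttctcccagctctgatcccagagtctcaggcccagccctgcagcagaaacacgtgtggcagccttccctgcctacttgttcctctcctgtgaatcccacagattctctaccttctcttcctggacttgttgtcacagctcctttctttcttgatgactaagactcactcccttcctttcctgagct
Casp4: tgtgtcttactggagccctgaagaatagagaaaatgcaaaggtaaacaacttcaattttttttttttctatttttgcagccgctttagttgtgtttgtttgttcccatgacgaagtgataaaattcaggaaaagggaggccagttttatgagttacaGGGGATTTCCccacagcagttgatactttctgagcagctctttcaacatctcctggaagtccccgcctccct

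The marked match began 93 bases before the RefSeq start site of Casp4. A further match, on the minus strand, began 14 bases before that start, in the 21 bases left out here because the GENCODE gene already covers them. No match to the 4 motifs searched on both strands (NF-kappaB, PU.1, C/EBP and ISRE) was found in the Casp1 window. The NF-kappaB motif was in 1.41% of 32851 windows of the same length. Of the 9 genes, 8 had a window before the gene (the Il1r2 window lay inside its gene and was not used), and 2 of these 8 had a match there, Casp4 and Pycard. The Pycard window held 1 match each to PU.1 and C/EBP, motifs found in 2.44% and 9.56% of windows. A match describes letters only.

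B cells also differed between young and aged mice in Pycard, at 69.1 CPM (635 UMIs) against 171 CPM (2999 UMIs), with 136 CPM (3655 UMIs) in the third library. The ratio aged over young was 2.48-fold (log2 1.31, 1.18 to 1.43), where 4.19% of 8944 genes were higher and 1.10% lower. A few cells carried this difference. B-gated cells with 3 or more UMIs of Jchain, the joining chain of secreted antibodies and a gene of plasma cells, were 1, 38 and 30 cells in the order young, aged, aged-GA. They held 57.0% of the Pycard UMIs of aged B cells and 53.1% of those of aged-GA B cells, at 2665 and 3139 CPM. A single B-gated cell held up to 167 Pycard UMIs in the aged and 208 in the aged-GA library. Mzb1 and Xbp1, genes of antibody secretion, reached 4690 and 576 CPM in the 38 aged cells. In the B cells with fewer Jchain UMIs, Pycard was at 67.4, 76.5 and 65.4 CPM, and the log2 ratio aged over young was 0.18 (0.04 to 0.32), within the 2-fold limit. Jchain was chosen for this split after the values were seen.

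The caspases of B cells were closer together. Casp4 had 14.9 CPM in young B cells, 28.5 CPM in aged ones and 26.6 CPM in aged-GA ones, a log2 ratio aged over young of 0.94 (0.66 to 1.22). Casp1 had 21.8, 26.0 and 30.1 CPM, with a log2 ratio of 0.21 (0.04 to 0.38) for aged-GA over aged. In B cells the handling-stress list summed to 3498 CPM in the young, 1521 CPM in the aged and 2215 CPM in the aged-GA library, and in T cells to 2587, 2068 and 2289 CPM; its part was not tested. In NK cells only Pycard had enough UMIs, at 351, 330 and 302 CPM, where 0.988% of genes were higher and 2.09% lower in aged than in young mice. In nonclassical monocytes none of the 4 members with enough UMIs passed the fold aged over young, against 3.75% of genes higher and 1.20% lower.

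**Figure D5:**
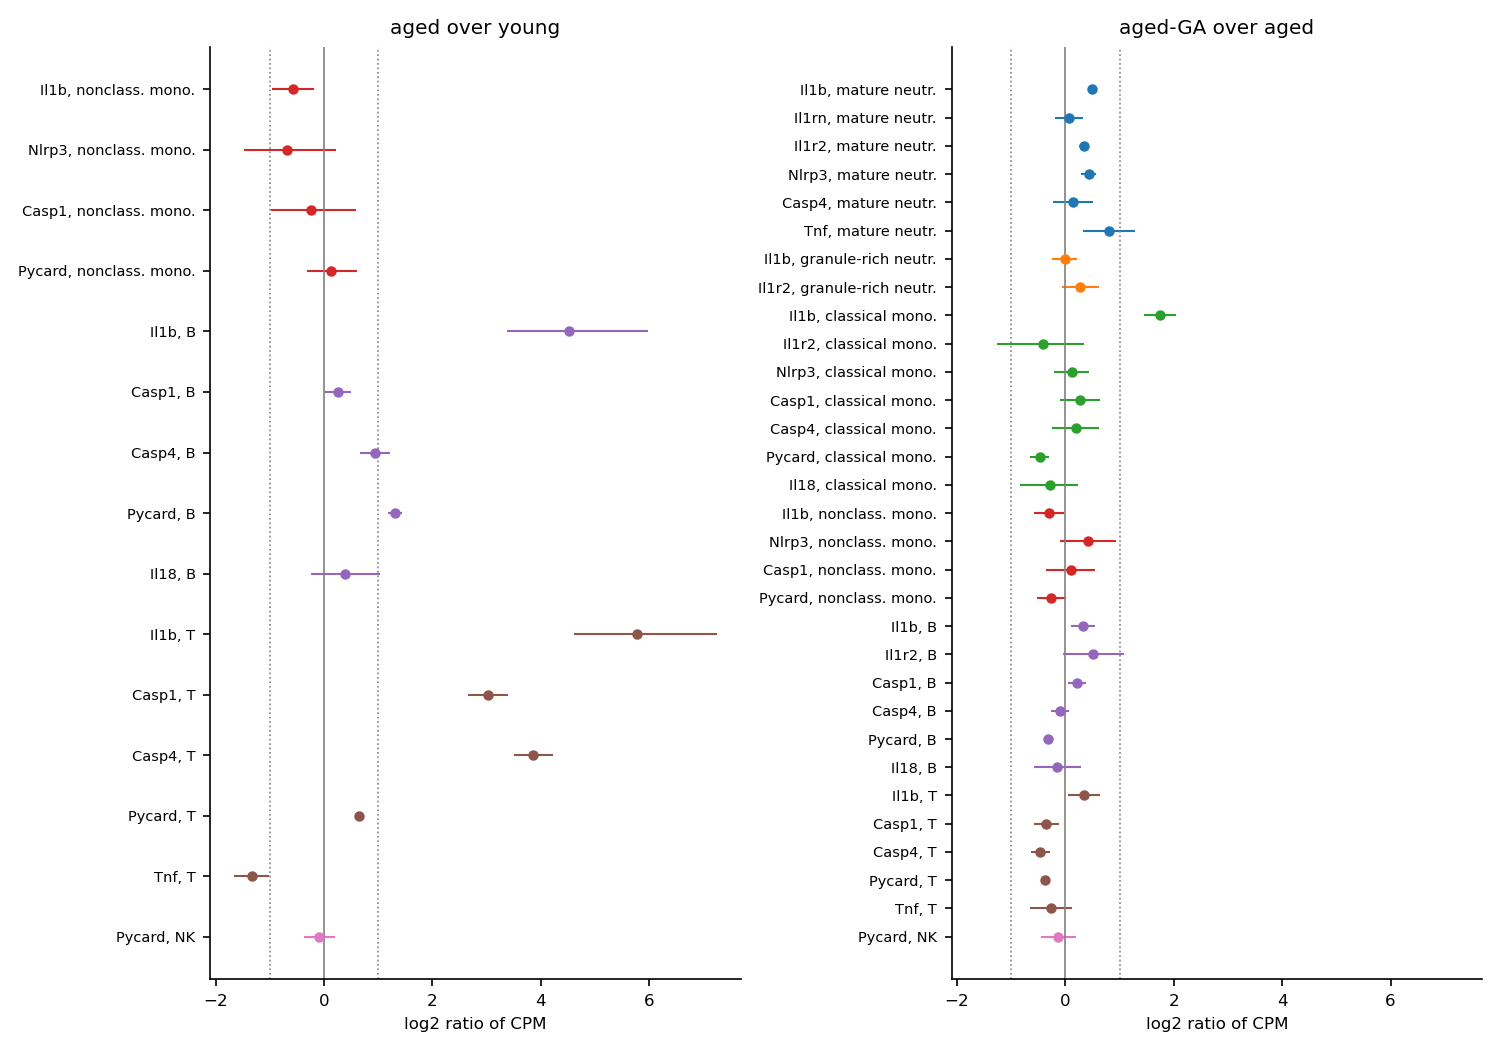
Log2 ratios of the 9 genes by gate for aged over young (left) and aged-GA over aged (right), with exact conditional 95% intervals of counting error; dotted lines mark a 2-fold difference. Casp4 and Casp1 in T cells, at 3.85 and 3.02, lie to the right for aged over young, and Il1b in classical monocytes, at 1.75, for aged-GA over aged.

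Other genes of the pathway were taken as 4 lists: 11 ligands and receptors of the interleukin 1 family, of which Il36g had no row, 7 genes of interleukin 1 signalling, 15 inflammasome sensors and effectors and 7 genes of the TNF pathway. Aged-GA over aged, none of their measured genes passed the fold in any of the 7 gates. Aged over young in T cells, where 8.94% of all genes were higher and 1.42% lower, the lists had 2 of 5 measured ligand and receptor genes higher, none of 5 signalling genes, 1 of 8 inflammasome genes higher and 1 lower, and 2 of 7 TNF genes higher. The medians of these lists were 0.53, 0.50, 0.57 and 0.62 on the log2 scale, where the median of all 9376 genes was 0.31. Il18r1 and Il18rap, the chains of the interleukin 18 receptor, stood at 23.0 and 7.24 CPM in young T cells and at 91.8 and 38.3 CPM in aged T cells. P2rx7, the ATP-gated channel that triggers NLRP3, had 2.08 and 11.1 CPM, and Tnfrsf1b, the second TNF receptor, 8.23 and 35.3 CPM. Adam17, the protease that sheds TNF, had a log2 ratio of 1.13. Txnip, a thioredoxin-binding protein, was lower in aged T cells (log2 -1.32), NK cells (log2 -1.48) and nonclassical monocytes (log2 -1.29). Tnfaip3, a brake on NF-kappaB, was lower in aged nonclassical monocytes (log2 -1.26), and Tnfrsf1b was higher in aged B cells (log2 1.04).

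Across 18 combinations of gate and library with enough UMIs, the levels of the members had contrasting patterns, given here as descriptions, since the points share libraries. B, T and NK cells are among these points, with the Il1b levels of B and T cells that were not taken as expression and the low Nlrp3 levels there. Il1rn and Il1r2 had a Pearson r of 0.97 on the log2 scale and Il1b and Nlrp3 of 0.92, while Il1b and Pycard had -0.615 and Il1r2 and Pycard -0.725. With Il1b, Casp4 had 0.744 and Casp1 0.272. Among 9373 genes, the one most like Il1b was Cxcl2, a chemokine for neutrophils (r = 0.976), followed by Csf3r (0.968), itself a marker of the neutrophil gate. Cd33 was most like Il1rn (0.983) and Gm5150 most like Nlrp3 (0.987).

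In GRCm38 the other members lie at chr2:129364570-129371139 (Il1b, minus strand), chr2:24336853-24351494 (Il1rn, plus), chr1:40074079-40125231 (Il1r2, plus), chr11:59541568-59566956 (Nlrp3, plus), chr7:127989708-127993867 (Pycard, minus), chr17:35199381-35202007 (Tnf, minus) and chr9:50554827-50581840 (Il18, plus). Il1b overlaps the antisense gene Il1bos, which had 3, 24 and 34 UMIs in the kept cells against 573, 28522 and 29732 of Il1b. Il18 overlaps Bco2 on the opposite strand, with 19, 59 and 61 UMIs against 49, 602 and 260. Whether the counting used strand is not stated, so Il18 is uncertain to that extent. Il1r2 overlaps Gm37347 on the same strand, a gene with no row in the count matrices.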

How the data were processed

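Blood mononuclear cells were analysed as 3 droplet-based libraries, 1 for each group. Raw UMI counts for every gene and barcode, not normalized, had been made by the authors with Cell Ranger and deposited; per the file headers the version was 5.0.0, and per the submitters' processing notes the build was mm10. A cell stayed in if it had 200 genes or more, no more than 90% of the highest gene number of its library, and a mitochondrial share up to 7.5%. Median depths of kept cells were 4671 UMIs (young), 3810.5 (aged) and 4752 (aged-GA), so that low genes are known only as sums over a gate.

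UMIs were summed per gate and library. The genes named are the 9 members, the gate markers, pathway and stress lists, and the 5 genes most like Il1b, Il1rn and Nlrp3, of which some are printed; Jchain, Mzb1 and Xbp1 were added after their values were seen. The members and lists were chosen with earlier results of these data known. The minimum of 20 cells, the T and B cell splits, the red cell reference, the motifs and some alternatives (a looser gate, the removal of 2 cells, the splits and doublet scores) were chosen after seeing the data. Other barcodes such as doublets were left in unless their markers conflicted. The T cell classes were first drawn with 1 more gene, which is not reported here. Scripts were tested on simulated data. Python 3.11.15, numpy 2.4.6, pandas 2.3.3, scipy 1.17.1, matplotlib 3.10.9 and scanpy 1.11.5 were used. Both comparisons share the aged library.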

Additional observations from a re-analysis of the deposited data

Results flagged for a closer look

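Il1b had ratios of opposite direction in different gates of the same comparison, and the difference between gates was not tested. Aged-GA over aged, its log2 ratio was 0.48 in mature neutrophils, 1.75 in classical monocytes, 0.32 in B cells and 0.34 in T cells, but -0.29 in nonclassical monocytes. The B and T cell levels were not taken as expression. A gate that allowed more markers of other types turned the nonclassical ratio to 0.66, so its direction was not kept. Aged over young, it was 4.52 in B cells and 5.77 in T cells, both at levels not taken as expression, but -0.58 in nonclassical monocytes. Casp1 had a log2 ratio of 0.21 in B cells and -0.36 in T cells, aged-GA over aged, and this difference was not tested either. Within the T cells it was 0.04 in memory-type, 0.37 in naive-type and -0.74 in the other T cells.

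Nlrp3 had a signal in the basophil gate, which entered no comparison because young mice had no cell in it. The 108 aged basophils held 458 CPM (154 UMIs) and the 19 aged-GA basophils 303 CPM (21 UMIs), where red cell barcodes held 18.2 and 9.57 CPM.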

How the results depend on the processing

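No paired analysis was possible because each group had 1 library, and no result came from a test. The alternatives gave 576 log2 ratios of 46 results, of which 533 stayed within the counting interval of the reported value and 0 reversed a ratio past the fold. The cause of the others was not tested unless the alternative's construction shows it. Some alternatives could change little: without the upper limit on genes, young T cells numbered 5344 against 5343. Adding 10 CPM to both levels cannot change a sign. A reversal meant a changed sign, so a ratio that only fell below the fold was not one. Pycard in B cells, aged over young, had log2 ratios of 0.60 with at least 5 markers, 0.51 with the mean of CPM per cell and 0.18 in cells with fewer than 3 Jchain UMIs. Il1b in mature neutrophils, aged-GA over aged, had 0.34 with a total without haemoglobin, mitochondrial, ribosomal and S100a8 and S100a9 UMIs, 0.34 with the mean per cell, 0.41 without cells over 5% haemoglobin and 0.45 with other markers up to 2 for each 3. Il1b in classical monocytes had 1.04 without the 2 cells with most Il1b. With 10 CPM added to both levels, T cells had 1.35 for Casp1, 1.93 for Casp4 and -0.75 for Tnf, aged over young, and 0 combinations were lower. Casp4 had 2.51 in naive-type and 2.29 in memory-type T cells, and in memory-type cells Casp1 had 1.49 and Tnf -1.84. With a minimum of 30 UMIs, 8 combinations were higher and 3 lower, aged over young. Aged-GA over aged, 1 combination, Il1b in granule-rich neutrophils, was lower with the mean per cell (-1.28), without cells over 5% haemoglobin (-1.26) and without the 2 cells (-3.22), against -0.01 as reported. Members lower in mature neutrophils than in classical monocytes of aged-GA mice numbered 2 with up to 15% mitochondrial UMIs, 3 with 30 UMIs and 2 with the looser gate. The shares of all genes past the fold were not computed for any alternative. The counts of combinations and members under the alternatives therefore have no background to be read against. Uncalled ratios changed sign in 15 cases. Scrublet's automatic threshold called 437, 451 and 0 cells, so leaving out its calls was not run, and the 6% of cells with the highest scores were left out instead. Low counts limit Il18 and Tnf most, and young myeloid values are limited by the number of cells, 7, 5 and 2 in the gates not compared.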
